A study of Danio rerio with 15 samples.

Results

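Vitamin D is made active by hydroxylation and cleared by further hydroxylation. CYP2R1 is a hydroxylase that makes the circulating form, CYP27B1 turns that form into the hormone, and CYP24A1 is the hydroxylase that starts the breakdown of both. The hormone acts through the vitamin D receptor, which pairs with retinoid X receptors on DNA, and in vertebrates cyp24a1 is among the most inducible targets of that receptor, so that the hormone raises the enzyme that removes it. In fish larvae the pathway is known for its part in calcium uptake and skeletal mineralisation.

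The genes cyp24a1 and cyp2r1 were represented by 3 probe sets, chosen by their single annotated symbol among 15502 tested probe sets. Of these, 2 belonged to cyp24a1, called here its main and its second probe set, and 1 belonged to cyp2r1. Both genes were picked with their group differences in these same arrays already known, so their own levels and differences are a description and support nothing by themselves. Whole zebrafish larvae were exposed from 72 h after fertilisation for 96 h to sertraline at 25 µg/L, sertraline at 250 µg/L, fluoxetine at 25 µg/L or fluoxetine at 250 µg/L, or were kept in fish water with no drug as the control. Both drugs are selective serotonin reuptake inhibitors (SSRIs), which block the transporter that takes serotonin back into neurons. Each of the 5 groups had 3 beakers of about 100 larvae, the larvae of a beaker were pooled, and none were fed. One array was made per beaker, and each sample therefore mixed all tissues of many animals, in which fewer cells of a type and less RNA per cell cannot be told apart.

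The 15 arrays gave log2 values from 0.737 to 15.49, with array medians from 4.57 to 4.65. Arrays of 1 group correlated at a mean r of 0.986 to 0.989 across probe sets for fluoxetine at 25 µg/L, and of 0.9947 to 0.9967 for the other groups. In that group replicate 3 had the lowest mean r, and it was also the lowest of its group for the liver, pancreas and intestine marker lists described below. A list of 13 genes of muscle, nerve, skin and other larval tissues averaged 10.17 to 10.79 on every array. That mean joins genes whose control means ran from 3.23 (tnnt2a) to 15.13 (actc1b). With fluoxetine at 25 µg/L its genes differed from control by -0.67 to 0.81, so the mean does not show steady tissue content.

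On the main cyp24a1 probe set the arrays read log2 values of 7.01, 6.45 and 7.03 with sertraline at 25 µg/L, 7.29, 6.92 and 7.49 with sertraline at 250 µg/L, 8.92, 8.55 and 7.78 with fluoxetine at 25 µg/L, 8.63, 7.99 and 8.14 with fluoxetine at 250 µg/L, and 7.68, 6.91 and 6.63 in the control. All 6 fluoxetine arrays lay above all 9 sertraline and control arrays, and the sertraline arrays overlapped the control. The group means were 6.83 ± 0.33 with sertraline at 25 µg/L, 7.23 ± 0.29 with sertraline at 250 µg/L, 8.42 ± 0.58 with fluoxetine at 25 µg/L, 8.25 ± 0.33 with fluoxetine at 250 µg/L and 7.07 ± 0.55 in the control (SD, n = 3 each). In the order of these means, fluoxetine at 25 µg/L came first, then fluoxetine at 250 µg/L, sertraline at 250 µg/L, the control and sertraline at 25 µg/L. Among neighbours in that order, fluoxetine at 250 µg/L and sertraline at 250 µg/L did not overlap, with a gap of 1.02 between their means. The other neighbours overlapped.

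**Figure D1:**
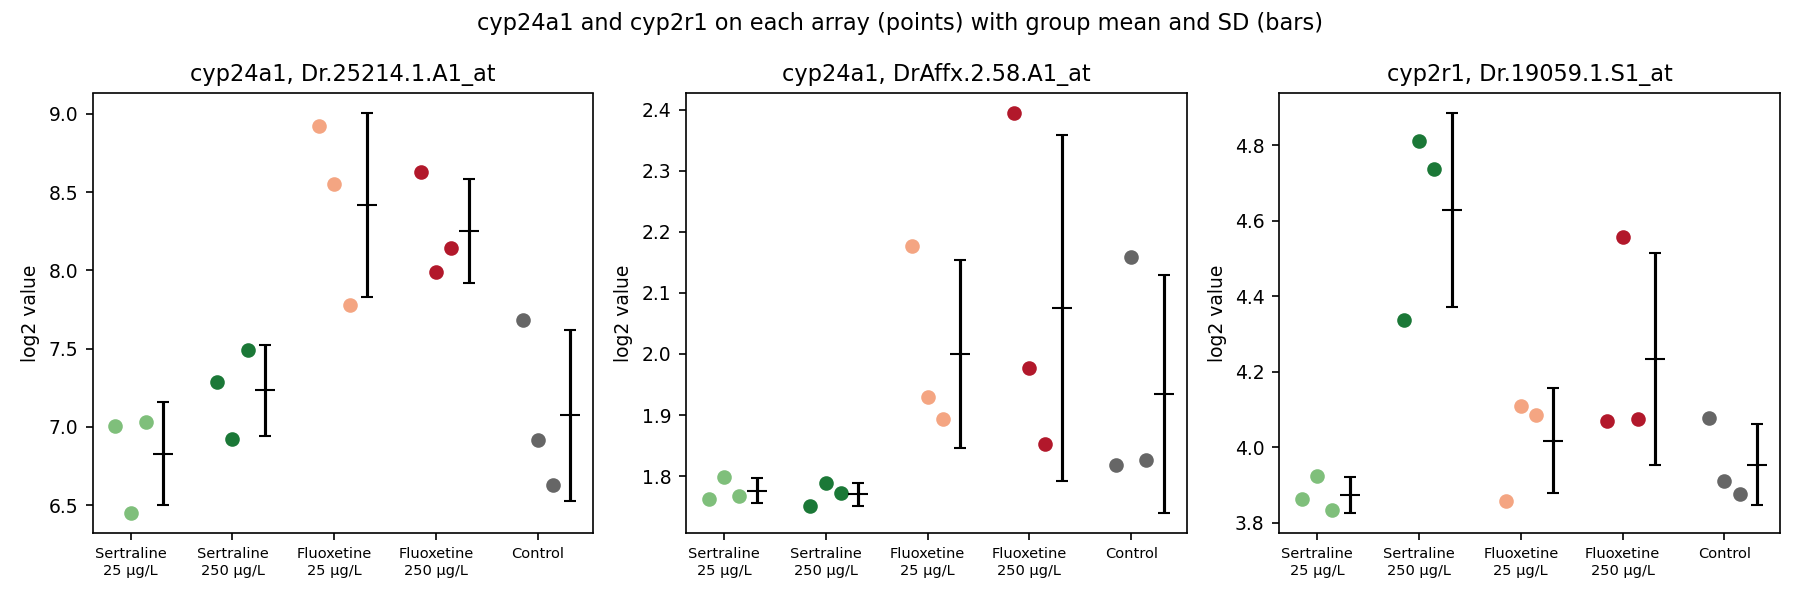
Log2 value of each cyp24a1 and cyp2r1 probe set on each array, with 1 panel per probe set and its own vertical axis, which does not start at 0. Points are the 3 arrays of a group (replicates 1, 2 and 3 left to right), and the bar beside them is the group mean with its SD. On the main cyp24a1 probe set (left panel) all 6 fluoxetine points lie above all others, and on the cyp2r1 probe set the 3 points of sertraline at 250 µg/L lie above all control points.

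Set against the control, cyp24a1 read 1.34 ± 0.32 higher with fluoxetine at 25 µg/L (log2 difference ± SE of the limma fit, 95% interval 0.65 to 2.04), which is 2.54-fold. With fluoxetine at 250 µg/L the difference from control was 1.18 ± 0.32 (0.48 to 1.88), or 2.26-fold. Between the concentrations of fluoxetine, 250 µg/L minus 25 µg/L gave -0.16, with an interval of -0.86 to 0.53. Sertraline differed from control by -0.24 at 25 µg/L (-0.94 to 0.45) and by 0.16 at 250 µg/L (-0.54 to 0.86), and these intervals take in changes of either sign.

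At matched concentration, cyp24a1 was lower with sertraline than with fluoxetine. The log2 difference, sertraline minus fluoxetine, was -1.59 ± 0.32 at 25 µg/L (-2.29 to -0.89), a 3.01-fold gap. It was -1.02 ± 0.32 at 250 µg/L (-1.72 to -0.32), a 2.03-fold gap, and there it shrank to -0.50 once the GAPDH 3′ minus 5′ difference, a sign of RNA quality, entered the fit as a covariate. The dose effect of sertraline exceeded that of fluoxetine by 0.57 ± 0.45, with an interval of -0.42 to 1.55.

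**Figure D2:**
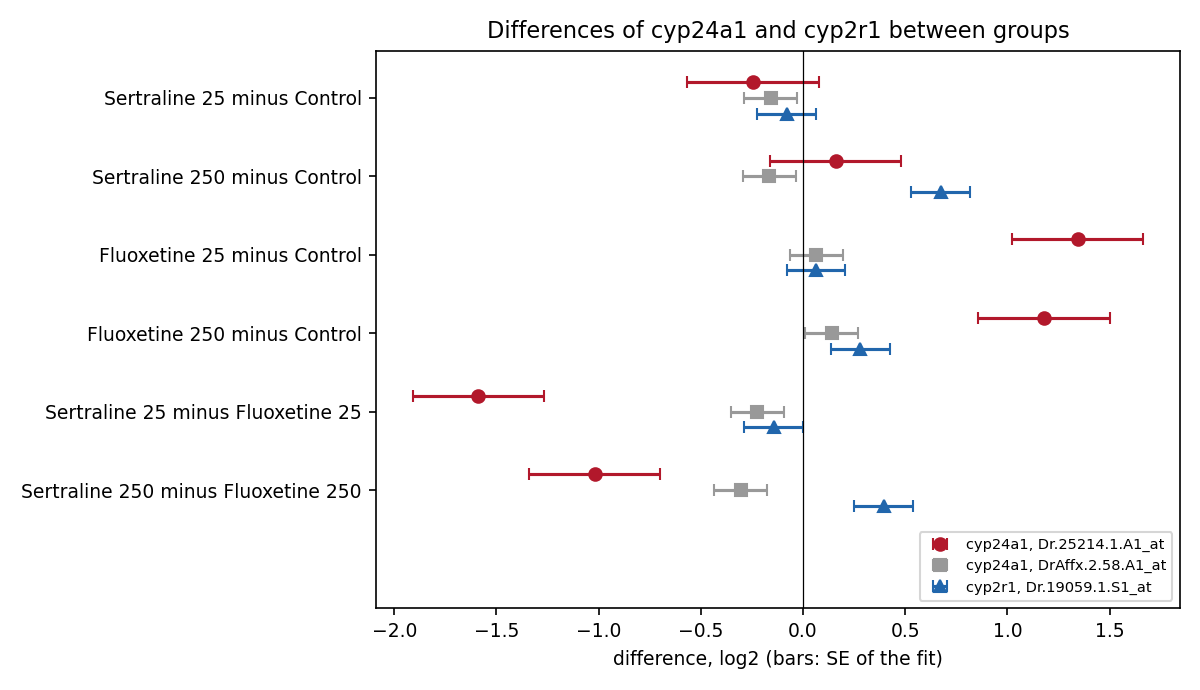
Differences between groups of the 3 probe sets on the log2 scale, in 6 comparisons, with points for the limma estimate and bars for its SE. The main cyp24a1 probe set stands at 1.34 and 1.18 for fluoxetine at 25 and 250 µg/L minus control and at -1.59 and -1.02 for sertraline minus fluoxetine, while cyp2r1 stands at 0.67 for sertraline at 250 µg/L minus control.

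The second cyp24a1 probe set read near the bottom of the range, with a mean above that of only 3.74% of tested probe sets. Its arrays gave 1.76, 1.80 and 1.77 with sertraline at 25 µg/L, 1.75, 1.79 and 1.77 with sertraline at 250 µg/L, 2.18, 1.93 and 1.89 with fluoxetine at 25 µg/L, 2.39, 1.98 and 1.85 with fluoxetine at 250 µg/L, and 1.82, 2.16 and 1.83 in the control. The fluoxetine arrays overlapped the control here, and all sertraline arrays lay below all control and all fluoxetine arrays. Sertraline minus control was -0.16 ± 0.13 at either concentration, and fluoxetine minus control was 0.07 ± 0.13 at 25 µg/L and 0.14 ± 0.13 at 250 µg/L. Sertraline minus fluoxetine was -0.22 ± 0.13 at 25 µg/L (-0.50 to 0.06) and -0.30 ± 0.13 at 250 µg/L (-0.59 to -0.02). Neither passed an adjusted p of 0.05 in limma (0.262 and 0.363).

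The mean of each cyp24a1 probe set was therefore lower with sertraline than with fluoxetine. On the second probe set these differences were small, near the bottom of the range, and passed at neither concentration. The probe sets shared neither the size of the difference nor the separation of fluoxetine from control. Over the 15 arrays they correlated at r = 0.59 (Spearman rho 0.55), and at r = 0.33 after each group mean was subtracted. The main probe set, by contrast, read above 83.1% of tested probe sets on average. What each probe set hybridises with beyond its symbol was not tested.

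The cyp2r1 probe set read 3.86, 3.93 and 3.83 with sertraline at 25 µg/L, 4.34, 4.81 and 4.74 with sertraline at 250 µg/L, 3.86, 4.11 and 4.08 with fluoxetine at 25 µg/L, 4.07, 4.56 and 4.08 with fluoxetine at 250 µg/L, and 4.08, 3.91 and 3.88 in the control. All 3 arrays of sertraline at 250 µg/L lay above all control arrays and above all arrays of sertraline at 25 µg/L. They overlapped fluoxetine at 250 µg/L through its replicate 2. The group means were 3.87 ± 0.05 and 4.63 ± 0.26 with sertraline at 25 and 250 µg/L, 4.02 ± 0.14 and 4.23 ± 0.28 with fluoxetine at 25 and 250 µg/L, and 3.95 ± 0.11 in the control (SD, n = 3 each). The order of means was sertraline at 250 µg/L, fluoxetine at 250 µg/L, fluoxetine at 25 µg/L, control and sertraline at 25 µg/L, and every pair of neighbours overlapped.

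Sertraline at 250 µg/L minus control was 0.67 ± 0.14 for cyp2r1 (0.36 to 0.99), or 1.60-fold, and sertraline at 250 µg/L minus 25 µg/L was 0.75 ± 0.14 (0.44 to 1.07), or 1.69-fold. Fluoxetine at 250 µg/L stood 0.28 ± 0.14 above control (-0.03 to 0.59). At 25 µg/L both drugs stood near control, at -0.08 for sertraline (-0.39 to 0.23) and 0.06 for fluoxetine (-0.25 to 0.37). Sertraline minus fluoxetine was -0.14 at 25 µg/L (-0.46 to 0.17) and 0.39 at 250 µg/L (0.08 to 0.71), the second of which was 0.17 with the GAPDH difference as a covariate. The dose effect of sertraline exceeded that of fluoxetine by 0.54 ± 0.20 (0.10 to 0.98). These intervals are for single comparisons, and no cyp2r1 difference passed the threshold in limma. The adjusted p was 0.25 for sertraline at 250 µg/L minus control and 0.322 for sertraline at 250 µg/L minus 25 µg/L. It was 0.259 for sertraline minus fluoxetine at 250 µg/L and 0.512 for the difference of dose effects. The array with the highest cyp2r1 value, sertraline at 250 µg/L replicate 2, also had the largest GAPDH difference of all 15 arrays, at 3.16. Without it, sertraline at 250 µg/L minus control was 0.58, and with the covariate it was 0.50.

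The groups whose arrays lay wholly above the control were both concentrations of fluoxetine for the main cyp24a1 probe set, and sertraline at 250 µg/L for cyp2r1. Over the 15 arrays cyp2r1 correlated at r = 0.02 with the main cyp24a1 probe set and at r = -0.23 with the other.

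Read against all 15502 probe sets, few of these differences passed an adjusted p of 0.05. In fluoxetine at 25 µg/L minus control, 1 of the 3 probe sets passed (the main one of cyp24a1), where 2.53% of all probe sets did. In sertraline minus fluoxetine at 25 µg/L the same probe set passed, where 2.1% of all did. None of the 3 passed in the other 7 comparisons. The share of all probe sets that passed there was 1.15% for fluoxetine at 250 µg/L minus control, 0.0645% for sertraline at 25 µg/L minus control, 1.37% for sertraline minus fluoxetine at 250 µg/L, 0.252% for fluoxetine at 250 minus 25 µg/L and 0.00645% for the difference of dose effects. It was 0% for sertraline at 250 µg/L minus control and for sertraline at 250 minus 25 µg/L, where limma gave 983 and 754 probe sets at an unadjusted p under 0.05. At that unadjusted p limma gave 618 probe sets for sertraline at 25 µg/L minus control. It gave 2981 and 1653 for fluoxetine at 25 and 250 µg/L minus control. These contrasts share their groups with the ones that chose the genes, so nothing is read from the counts.

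The cyp24a1 call in fluoxetine at 25 µg/L minus control was a narrow one, with an adjusted p of 0.0483. It was lost without fluoxetine at 25 µg/L replicate 1 (difference 1.09, adjusted p 0.112) or 2 (1.28, 0.15), and without control replicate 2 (1.26, 0.164) or 3 (1.12, 0.191). Leaving out any single array of the other 3 groups also lost it, at adjusted p values of 0.0515 to 0.0702. Such fits change the shared estimate of spread and the adjustment over all probe sets, but not the difference. The call was kept without fluoxetine at 25 µg/L replicate 3 or control replicate 1. The call in sertraline minus fluoxetine at 25 µg/L was lost without fluoxetine at 25 µg/L replicate 2 (adjusted p 0.0894) or any 1 of the sertraline arrays at 25 µg/L (0.0654 to 0.0947).

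By separation of arrays, 1 of the 3 probe sets did not overlap between fluoxetine at 25 µg/L and control, where 25.3% of all probe sets did not, and 1 between fluoxetine at 250 µg/L and control (14.8% of all). The counts were 1 for sertraline at 25 µg/L and control (9.78%), 2 for sertraline at 250 µg/L and control (14.3%) and 1 for sertraline at 250 and 25 µg/L (11.6%). Between sertraline and fluoxetine, 2 of the 3 did not overlap at 25 µg/L (35.7% of all) and 2 at 250 µg/L (16.8%).

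The rest of the pathway was then described by role. The genes cyp27b1, which makes the hormone, gc, the vitamin D carrier of plasma, and vdrb, a second vitamin D receptor, had no probe set under a single symbol in the annotation used here and were not analysed here, nor were rxraa, rxrgb and cyp27a1.2. The receptor gene vdra differed from control by -0.02 and 0.02 with sertraline at 25 and 250 µg/L and by -0.01 and 0.15 with fluoxetine at 25 and 250 µg/L, each with an SE of 0.11. Its arrays read from 1.81 to 2.35, near the low end of the range. The 4 measured retinoid X receptor genes rxrab, rxrba, rxrbb and rxrga, the partners of the receptor, differed from control by -0.12 to 0.14 over all groups. Their arrays read from 1.86 to 3.18, below every array median. At such low levels of vdra and the rxr genes, small differences do not show that the genes were unchanged.

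Of the other hydroxylases, cyp27a1.1, a sterol hydroxylase gene whose mammalian counterpart also acts on vitamin D, differed from control by 0.55 ± 0.21 with fluoxetine at 25 µg/L, against 0.11 with fluoxetine at 250 µg/L and -0.04 and 0.15 with sertraline at 25 and 250 µg/L. Its arrays with fluoxetine at 25 µg/L ran from 4.61 to 5.63 and overlapped the control arrays, at 4.56 to 4.78. Both probe sets of cyp27a1.4 differed from control by -0.11 to -0.06 with sertraline and by 0.18 to 0.28 with fluoxetine. For dhcr7, whose enzyme turns the vitamin D precursor into cholesterol, the difference from control was 0.19 and 0.32 with sertraline at 25 and 250 µg/L and 0.50 and 0.53 with fluoxetine at 25 and 250 µg/L. None of these differences passed the threshold.

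A list drawn up for the other vitamin D enzymes, the carrier, the receptors and their cofactors had 12 measured genes of 29 symbols, of which 0 passed in limma in any of the 4 comparisons with control. At an unadjusted p under 0.05 there were 0 and 2 of the 12 with sertraline at 25 and 250 µg/L and 3 and 1 with fluoxetine at 25 and 250 µg/L. The 1 gene with fluoxetine at 250 µg/L was cyp27c1, which acts on vitamin A and is described below, and the carrier gene gc was not among the 12. Of all 15502 probe sets, 618 and 983 had such a p with sertraline and 2981 and 1653 with fluoxetine. The median difference of the list was -0.02 with sertraline at either concentration and 0.04 and -0.02 with fluoxetine at 25 and 250 µg/L. Over all probe sets the medians were -0.03 and -0.04 with sertraline and 0.06 and -0.02 with fluoxetine, at 25 and 250 µg/L each.

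**Figure D3:**
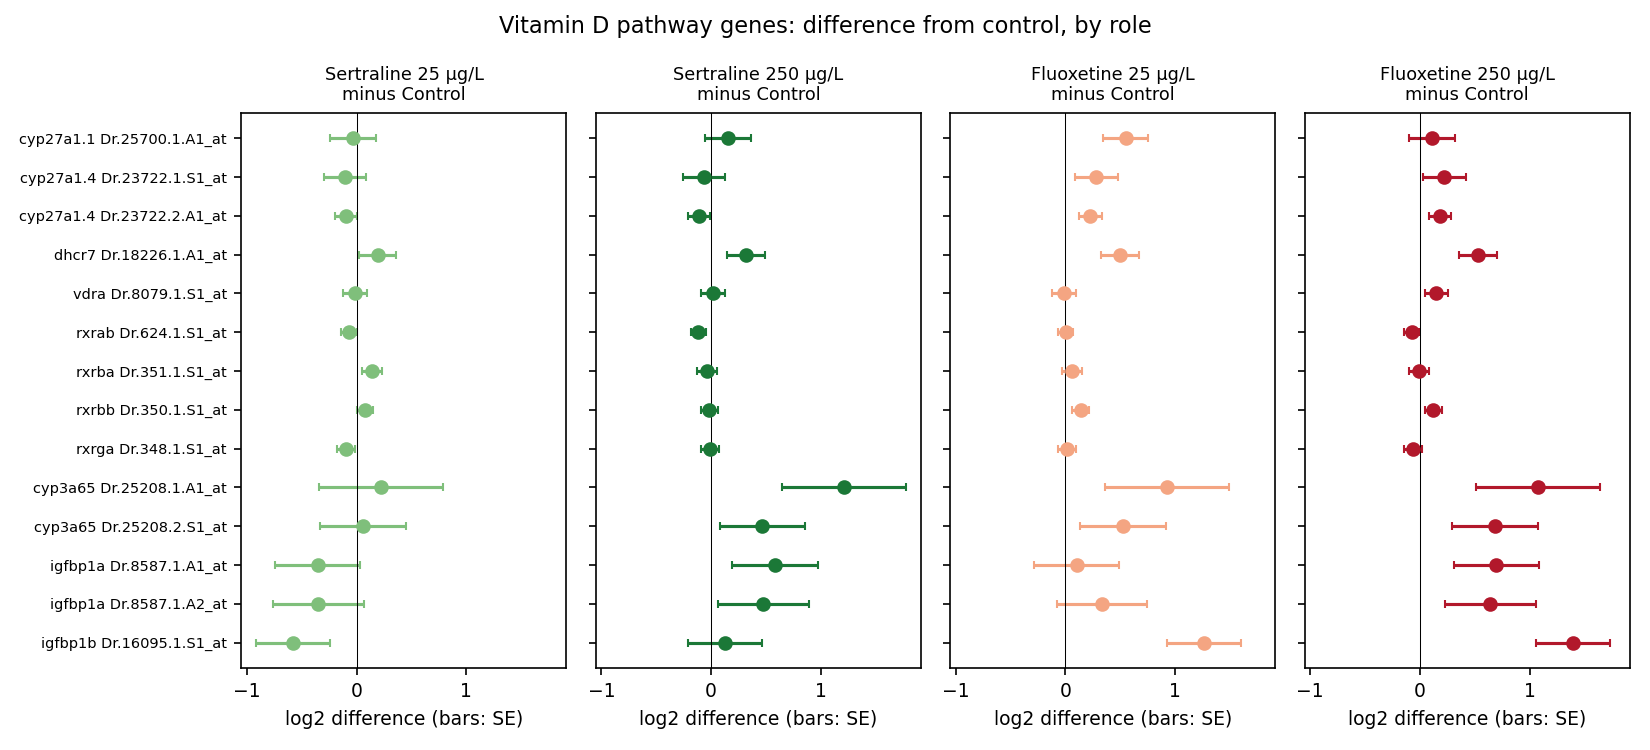
Differences from control of pathway genes by role, with 1 panel per treated group, points for the limma estimate on the log2 scale and bars for its SE; each row is a probe set. From top to bottom the rows are sterol and vitamin D hydroxylases, dhcr7, the receptor gene vdra and retinoid X receptors. The last rows are 3 genes listed as known or proposed receptor targets. The receptor rows, whose probe sets read low on all arrays, run from -0.12 to 0.15, and igfbp1b reaches 1.26 and 1.4 with fluoxetine.

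Of the genes listed as known or proposed vitamin D receptor targets, trpv6, fgf23, pth1a and pth1b had no probe set under a single symbol. They were not analysed here. Among the 20 measured genes of 34 symbols on that list, 1 passed in a comparison with control. This was atp2b1a, a plasma membrane calcium pump gene, which fell with fluoxetine at 25 µg/L on the atp2b1a probe set with the highest mean, to 8.52 against 9.17 in the control (-0.66 ± 0.15, limma adjusted p 0.0444). The call was lost in 11 of 15 fits that left out 1 array, in which the difference was between -0.71 and -0.50, with adjusted p up to 0.178 (without control replicate 3). It was kept only without fluoxetine at 25 µg/L replicate 3, sertraline at 25 µg/L replicate 3 or sertraline at 250 µg/L replicate 1 or 2. Another atp2b1a probe set passed with fluoxetine at 250 µg/L instead (-0.51, adjusted p 0.0238), where the first differed by -0.55 and did not pass, and the remaining one passed in neither (-0.08 and -0.13 with fluoxetine at 25 and 250 µg/L).

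The gene cyp3a65, of the CYP3A family of drug and steroid hydroxylases, differed from control by 0.22 and 1.21 with sertraline at 25 and 250 µg/L and by 0.92 and 1.08 with fluoxetine at 25 and 250 µg/L on its brighter probe set, each with an SE of 0.57, and did not pass. The growth factor binding protein gene igfbp1b differed by -0.58 and 0.13 with sertraline and by 1.26 and 1.4 with fluoxetine, each ± 0.34, with adjusted p values of 0.0745 and 0.0831 for fluoxetine at 25 and 250 µg/L. The related gene igfbp1a differed by -0.35 and 0.58 with sertraline and by 0.10 and 0.70 with fluoxetine on 1 probe set, by -0.35 and 0.48 with sertraline and by 0.33 and 0.64 with fluoxetine on the other, and did not pass. The median difference of the 20 targets was -0.01 and 0.04 with sertraline and 0.09 and 0.02 with fluoxetine, at 25 and 250 µg/L each.

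In the list for calcium and phosphate balance, casr and stc1 had no probe set under a single symbol and were not analysed here. Of its 14 measured genes of 36 symbols, 1 passed. The phosphate transporter gene slc20a1b read 7.54, 7.20 and 7.40 with fluoxetine at 25 µg/L, against 8.88, 8.65 and 8.65 in the control. Its groups did not overlap, and it fell by 1.35 on the log2 scale (SE 0.11, limma adjusted p 1.83e-05), and it passed in each of the 15 fits that left out 1 array. The other treated groups averaged 8.48 and 8.74 with sertraline at 25 and 250 µg/L and 8.37 with fluoxetine at 250 µg/L, against 8.73 in the control, and did not pass. Of 7 measured genes of 17 symbols for sterol precursor steps, the squalene synthase gene fdft1 fell, by 0.38 on the log2 scale with fluoxetine at 25 µg/L (limma adjusted p 0.0288) and by 0.38 at 250 µg/L (adjusted p 0.0462). With sertraline fdft1 differed from control by 0.09 and -0.26 at 25 and 250 µg/L and did not pass, and sertraline minus fluoxetine at 250 µg/L was 0.12 (-0.06 to 0.30). The call at 25 µg/L was lost without fluoxetine at 25 µg/L replicate 1 (-0.35, 0.0734) or 2 (-0.36, 0.0957) or control replicate 2 (-0.30, 0.121). The call at 250 µg/L was kept only without fluoxetine at 25 µg/L replicate 3 or sertraline at 250 µg/L replicate 1, and lost in the other 13 fits, with adjusted p up to 0.168 (without control replicate 2). The median difference of the calcium and phosphate list was -0.06 and -0.01 with sertraline and -0.01 and -0.10 with fluoxetine, and that of the sterol list 0.07 and -0.04 with sertraline and 0.13 and -0.07 with fluoxetine, at 25 and 250 µg/L each.

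Taking the 4 lists as 1 set of 53 genes, 3 passed with fluoxetine at 25 µg/L and 1 with fluoxetine at 250 µg/L, all lower than control, and 0 with sertraline at 25 or 250 µg/L in limma (2 and 6 at an unadjusted p under 0.05). Of all 15502 probe sets, 2.53% and 1.15% passed with fluoxetine at 25 and 250 µg/L. With sertraline at 25 and 250 µg/L, 618 and 983 of them had an unadjusted p under 0.05. Fluoxetine at 25 µg/L replicate 3 was the array with the lowest mean r within its group. Without it, 1034 of all 15502 probe sets passed at that concentration, against 392 with all arrays, and 9 of the 53 did. These were the 3 genes above, higher values of cyp3a65 (1.75, adjusted p 0.0156), igfbp1b (1.72, 0.00241) and cyp27a1.1 (0.85, 0.00358), and lower values of the calretinin genes calb2a (-0.66, 0.0217) and calb2b (-0.62, 0.00846) and the calcium pump gene atp2b3a (-0.48, 0.0235).

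Cytochrome P450 genes formed the wider family, with 69 probe sets for 48 genes. Of the 46 genes other than cyp24a1 and cyp2r1, 0 passed in any comparison with control in limma. At an unadjusted p under 0.05 there were 1 and 3 with sertraline at 25 and 250 µg/L and 10 and 3 with fluoxetine at 25 and 250 µg/L. Of all 15502 probe sets, 618 and 983 had such a p with sertraline and 2981 and 1653 with fluoxetine, so nothing is read from these counts. Smallest in p were cyp2k6, cyp3c1, cyp17a1 and cyp26b1 with sertraline at 25 µg/L, and cyp3c3, cyp2k6, cyp27c1, cyp17a1 and cyp26a1 with sertraline at 250 µg/L. With fluoxetine they were cyp3c3, cyp27a1.1, cyp4v2a, cyp27c1 and cyp2p6 at 25 µg/L, and cyp4v2b, cyp27c1, cyp3c1, cyp26b1 and cyp3a65 at 250 µg/L. Among them cyp27c1, whose enzyme desaturates vitamin A in zebrafish, differed from control by -0.12 and -0.32 with sertraline at 25 and 250 µg/L and by -0.34 and -0.46 with fluoxetine at 25 and 250 µg/L. The gene cyp3c3 read 0.66 above control with sertraline at 250 µg/L and 0.58 above it with fluoxetine at 25 µg/L. The median difference of the 46 genes was -0.06 and -0.03 with sertraline and 0.08 and -0.01 with fluoxetine, at 25 and 250 µg/L each.

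A list of nuclear receptor, bile acid and xenobiotic genes near the pathway had 8 measured genes of 22 symbols. It was drawn up with earlier results of these data known, so nothing is read from its counts. With fluoxetine at 25 µg/L 4 of the 8 passed, where 2.53% of all probe sets did. The repressor gene nr0b2a rose by 1.80 ± 0.37 on its brighter probe set (limma adjusted p 0.0212). On that probe set its differences from control were 1.11 and 2.25 with sertraline at 25 and 250 µg/L (adjusted p 0.899 and 0.101) and 1.57 with fluoxetine at 250 µg/L (0.0745). All arrays of each treated group lay above the control arrays there, and no difference of its dimmer probe set from control passed. The glucocorticoid receptor gene nr3c1 rose by 0.46 ± 0.09 with fluoxetine at 25 µg/L on its brightest probe set (limma adjusted p 0.0204), while its other 2 probe sets gave 0.06 and -0.07 there (0.79 and 0.877). One of those passed with fluoxetine at 250 µg/L instead (0.81, adjusted p 0.0117), where the brightest differed by 0.23 and did not pass. With fluoxetine at 25 µg/L the coactivator gene ppargc1b fell by 1.31 on the log2 scale (0.000339), and fkbp5, a co-chaperone of the glucocorticoid receptor, fell by 4.99 (1.05e-06). With fluoxetine at 250 µg/L ppargc1b fell by 0.92 (0.0105), and with sertraline at 25 µg/L fkbp5 fell by 2.19 (0.0107). With sertraline at 250 µg/L 0 passed in limma, where 2 of the list had an unadjusted p under 0.05. At 250 µg/L fkbp5 read 9.09 to 9.49 with fluoxetine and 8.58 to 9.57 with sertraline. These arrays lay below all control arrays, at 10.18 to 10.28, and neither difference passed. The nr0b2a call was lost without fluoxetine at 25 µg/L replicate 1 (1.51, 0.0662) or 2 (1.64, 0.0908) or control replicate 3 (1.52, 0.0959), and that of nr3c1 without fluoxetine at 25 µg/L replicate 2 (0.42, 0.0847) or control replicate 3 (0.37, 0.0806). The ppargc1b call at 250 µg/L was lost without fluoxetine at 250 µg/L replicate 1 (-0.88, 0.0593), and the fkbp5 call with sertraline without sertraline at 25 µg/L replicate 2 (-1.97, 0.0808) or control replicate 1 (-2.18, 0.0624) or 2 (-2.22, 0.0632). The median difference of the 8 genes was -0.06 and -0.09 with sertraline and 0.19 and 0.18 with fluoxetine, at 25 and 250 µg/L each. The pregnane X receptor gene nr1i2 had no probe set under its symbol and was not analysed here.

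The genes whose pattern over the 15 arrays was most like that of the main cyp24a1 probe set were igfbp1b (Pearson r = 0.96), tat (0.95), dnajb1b (0.94), itih3b.2 (0.93) and ampd3b (0.93), out of 10794 other probe sets with 1 symbol. Subtracting each group mean left r values of 0.89, 0.90, 0.77, 0.81 and 0.69 in the same order. In mammals tat encodes tyrosine aminotransferase, a liver enzyme of amino acid breakdown, itih3 a plasma protein subunit, dnajb1 a heat shock co-chaperone and ampd3 an AMP deaminase. In all, 14 probe sets exceeded r = 0.9. The arrays share their groups, and cyp24a1 was known to differ between them, so genes found this way tend to differ between the same groups.

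Like cyp24a1, igfbp1b read 7.50, 7.19 and 7.71 with sertraline at 25 µg/L, 8.09, 7.98 and 8.46 with sertraline at 250 µg/L, 9.90, 9.63 and 8.41 with fluoxetine at 25 µg/L, 9.95, 9.01 and 9.37 with fluoxetine at 250 µg/L, and 8.31, 7.94 and 7.89 in the control. The lowest array of fluoxetine at 25 µg/L was replicate 3 for both genes. For tat the arrays read 8.72, 8.09 and 8.78 with sertraline at 25 µg/L, 8.69, 8.94 and 9.03 with sertraline at 250 µg/L, 10.30, 9.65 and 8.91 with fluoxetine at 25 µg/L, 9.84, 9.38 and 9.27 with fluoxetine at 250 µg/L, and 9.14, 8.75 and 8.04 in the control, so that replicate 3 of fluoxetine at 25 µg/L fell within the control range. Of these 5 genes, dnajb1b and ampd3b passed with fluoxetine, dnajb1b at 1.25 and 0.90 (limma adjusted p 0.000592 and 0.0117 at 25 and 250 µg/L) and ampd3b at 1.27 and 1.07 (0.00115 and 0.0082). The dnajb1b call at 250 µg/L was lost without fluoxetine at 250 µg/L replicate 1 (0.84, 0.0684) or control replicate 2 (0.90, 0.0535) or 3 (0.84, 0.0527). Most opposed to cyp24a1 were desi1a (r = -0.93), timm50 (-0.92), a gene of the mitochondrial import machinery, and tubb5 (-0.92), a tubulin gene.

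**Figure D4:**
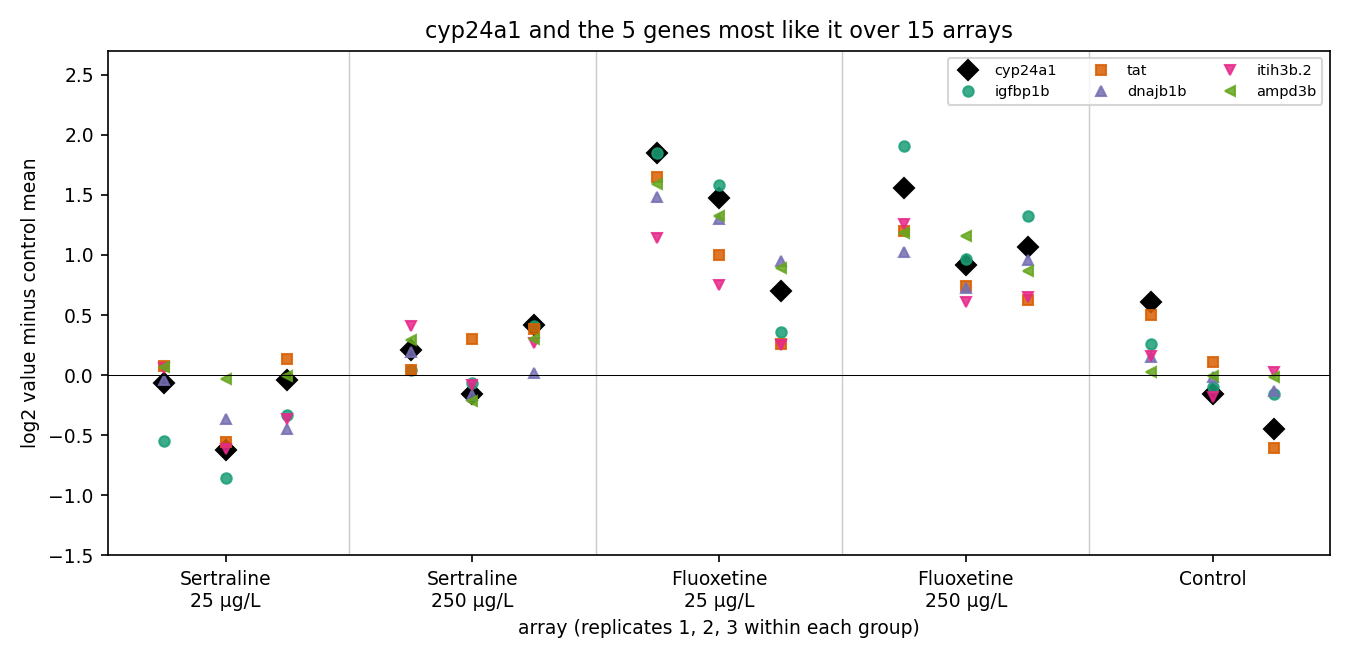
Log2 values minus the control mean of cyp24a1 (main probe set, black diamonds) and of the 5 genes most correlated with it, on each of the 15 arrays, with replicates 1, 2 and 3 left to right in each group. Most fluoxetine points lie above the other arrays of the same gene, and replicate 3, the lowest of fluoxetine at 25 µg/L, overlaps other groups for some genes, such as tat and itih3b.2.

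The second cyp24a1 probe set had other neighbours, phf8 (r = 0.89), cib1 (0.87), gnaia (0.86), krt1-19d (0.84) and cyp2ad2 (0.84). Each of these had its highest value on fluoxetine at 250 µg/L replicate 1, as did the second probe set, at 2.39. There phf8 read 3.71, cib1 3.76, gnaia 4.23, krt1-19d 2.57 and cyp2ad2 4.66. Their Spearman rho ran from 0.52 (cyp2ad2) to 0.79 (krt1-19d). The part of that array in these correlations was not tested. The second probe set was most opposed to si:ch1073-205c8.3 (-0.88), u2af1 (-0.82) and ppp3r1b (-0.81). For cyp2r1 the highest correlations were weaker, with eepd1 (0.83), usp14 (0.81), pprc1 (0.76), mettl2a (0.75) and mrps7 (0.74), and the lowest were fbxo11b (-0.76), slc4a4b (-0.75) and pvalb3 (-0.74). No probe set exceeded r = 0.9 with either.

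Markers of organs that could carry cyp24a1 were set beside it. The liver list, 10 measured genes of 14 symbols with fabp10a and tfa among them, had array means of 5.82, 7.06 and 7.36 (lowest, middle, highest) with sertraline at 25 µg/L, 7.64, 7.84 and 8.28 with sertraline at 250 µg/L, 6.41, 8.51 and 8.59 with fluoxetine at 25 µg/L, 7.79, 8.28 and 8.89 with fluoxetine at 250 µg/L, and 6.82, 7.11 and 7.63 in the control. The list moved with cyp24a1 in part: the 3 arrays with the highest cyp24a1 value were also the 3 with the highest liver mean, and the lowest array was the same in both. It departed from cyp24a1 on fluoxetine at 25 µg/L replicate 3, which ranked 14 of 15 for the liver list and 6 for cyp24a1, at 7.78, above every control array. For sertraline at 250 µg/L the median liver gene was 0.70 above control and cyp24a1 was 0.16 above it. The interval of that cyp24a1 difference, -0.54 to 0.86, takes in 0.70, so no departure is read there. The median liver gene differed from control by -0.36 with sertraline at 25 µg/L, 0.67 with fluoxetine at 25 µg/L and 1.11 with fluoxetine at 250 µg/L. In limma 0 of the 10 passed in any comparison with control. At an unadjusted p under 0.05 there were 0 and 1 with sertraline at 25 and 250 µg/L and 2 and 3 with fluoxetine. Of all 15502 probe sets, 618 and 983 had such a p with sertraline and 2981 and 1653 with fluoxetine.

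**Figure D5:**
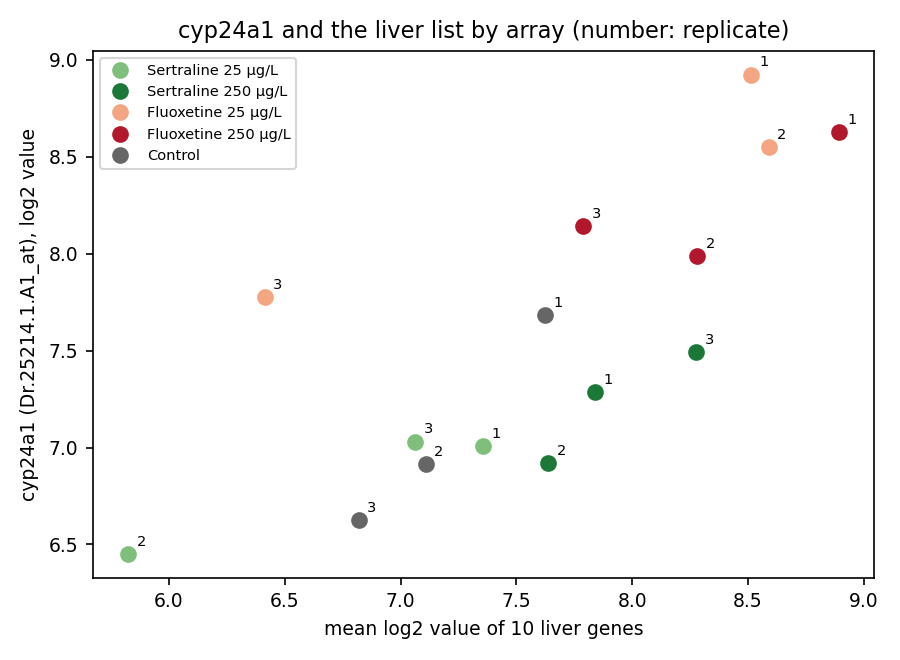
Log2 value of cyp24a1 (main probe set) against the mean log2 value of 10 liver genes on each of the 15 arrays, with the replicate number beside each point. All fluoxetine arrays lie above all other arrays in cyp24a1, and some of them have a higher liver mean than any array of the other groups. Replicate 3 of fluoxetine at 25 µg/L has a liver mean of 6.41 with a cyp24a1 value of 7.78.

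The exocrine pancreas list (10 genes) had array means from 5.23 to 6.14 and from 5.75 to 5.96 with sertraline at 25 and 250 µg/L, from 5.77 to 8.62 and from 5.88 to 7.20 with fluoxetine at 25 and 250 µg/L, and from 4.57 to 6.02 in the control. All 10 of its genes had an unadjusted p under 0.05 with fluoxetine at 25 µg/L, as did 2981 of all 15502 probe sets, and none of the 10 passed after adjustment. The intestine list (11 genes) ran from 6.51 to 6.58 with sertraline at 250 µg/L, the group with the highest cyp2r1 values, from 5.38 to 6.02 with sertraline at 25 µg/L, from 5.38 to 6.78 and from 5.76 to 6.55 with fluoxetine at 25 and 250 µg/L, and from 5.33 to 5.91 in the control. With sertraline at 250 µg/L the median intestine gene differed from control by 0.85, and 7 of the 11 had an unadjusted p under 0.05. Of all 15502 probe sets, 983 did there. At that p there were 1 of the 11 with sertraline at 25 µg/L and 5 and 3 with fluoxetine at 25 and 250 µg/L. All probe sets gave 618, 2981 and 1653 there. In limma 0 of the 11 passed in any comparison with control. The kidney list (8 genes), from the organ in which mammalian cyp24a1 is best known, had means between 4.36 and 4.59 on all 15 arrays. That mean joins genes whose control means ran from 1.61 (pax8) to 6.71 (trpm7). With fluoxetine at 25 µg/L its genes differed from control by -0.50 to 0.23, so a steady mean does not show steady kidney content. The skeletal list (9 genes) ran from 3.91 to 4.07 with fluoxetine at 25 µg/L, above all control arrays, at 3.78 to 3.85. It ran from 3.76 to 3.84 and from 3.77 to 3.82 with sertraline at 25 and 250 µg/L and from 3.79 to 3.92 with fluoxetine at 250 µg/L. Several of its genes read near the low end of the range, such as sox9a at 1.63 and sp7 at 2.22 in the control. With fluoxetine at 25 µg/L the median gene differed from control by 0.11 and the highest by 0.74. With fluoxetine at 25 µg/L 3 of the 9 skeletal genes had an unadjusted p under 0.05, as did 2981 of all 15502 probe sets, and 0 of the 9 passed in limma. The part of organ content in the cyp24a1 and cyp2r1 values was not tested.

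The GAPDH 3′ minus 5′ difference averaged 2.08 and 2.27 with sertraline at 25 and 250 µg/L and 1.96 and 1.45 with fluoxetine at 25 and 250 µg/L, against 1.66 in the control. Compared with control by an exact permutation test (two-sided), each sertraline group had p = 0.1, the lowest value possible for groups of 3, and each fluoxetine group had p = 0.4. With that difference as a covariate, cyp24a1 with fluoxetine at 25 µg/L was 1.53 above control, more than without it. The covariate did not enlarge every cyp24a1 difference, since sertraline minus fluoxetine at 250 µg/L shrank, as given above. Within each treated group the array with the largest GAPDH difference had the lowest value of the main cyp24a1 probe set. In the control the array with the largest GAPDH difference had the highest. Replicate 3 of fluoxetine at 25 µg/L had the largest GAPDH difference of the fluoxetine arrays, at 2.36. The part of RNA quality in the cyp24a1 values was not tested.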

How the data were processed

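Total RNA of pooled larvae was hybridised to Affymetrix zebrafish arrays with 1 colour, 1 array per beaker and 15 in all. The log2 values were used as deposited by the authors. GCRMA and Partek are named in the submitters' processing notes, with roles and versions not given in the sources used here. Of 15617 probe sets, 115 control probe sets were left out. Of the 15502 tested, 10795 had 1 symbol in the platform annotation, 135 several and 4572 none. Only the first kind was named, and of it 10711 matched RefSeq names by Entrez number.

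In limma 3.58.1 (R 4.3.3) group means were estimated from all arrays together with moderated variances (residual df 10, prior df 2.37), and p-values were adjusted by Benjamini-Hochberg over all 15502 probe sets within each comparison, at a threshold of 0.05. The beaker was the replicate (n = 3), and this number limits the precision. In list counts a gene was taken by its probe set with the highest mean. Likeness is a Pearson correlation over 15 arrays, with no test. The code was tested on simulated data.

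Named genes were the members, list genes that passed in a comparison with control, pathway genes by role, the 5 P450 probe sets with the smallest p per comparison, and the 5 highest and 3 lowest correlations per probe set. The genes dhcr7, cyp3a65, igfbp1a and igfbp1b, those that passed only without 1 array or only between the drugs, and those of the last observation were chosen after their values were seen. The members and lists were chosen with earlier results of these data known. Alternatives were centring, quantile normalization, a filter on low values, a trended prior, unmoderated variances, array weights, a replicate block, fitting the compared groups alone, the GAPDH covariate, the mean of a gene's probe sets and leaving out each array.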

Additional observations from a re-analysis of the deposited data

Results flagged for a closer look

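Each result here was singled out because the effects of the drugs, or of their concentrations, differed in a test of the difference itself in limma, with p adjusted over all 15502 probe sets. Values are log2 differences, sertraline minus fluoxetine, and no explanation was weighed. For cyp24a1 the difference at 25 µg/L was -1.59 (adjusted p 0.0275), which describes a gene chosen for it. Its nearest neighbours in pattern gave -1.84 for igfbp1b (0.0161), -1.53 for dnajb1b (0.000208) and -1.26 for ampd3b (0.00222) at 25 µg/L, and -0.89 for dnajb1b (0.0139) and -0.94 for ampd3b (0.0172) at 250 µg/L. These 3 were chosen by their likeness to cyp24a1, so their direction is not independent of it.

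In the calcium, phosphate and sterol lists, the differences at 25 µg/L were 1.1 for slc20a1b (adjusted p 0.000164), 0.47 for fdft1 (0.0123) and -0.49 for the phosphate transporter gene slc34a2b (0.0229), whose means were 3.41 with sertraline and 3.90 with fluoxetine. At 250 µg/L they were 0.53 for the stanniocalcin gene stc2a (0.0101), with means of 8.35 with sertraline and 7.82 with fluoxetine, and 0.44 for the carbonic anhydrase gene ca2 (0.0327), with means of 9.59 with sertraline and 9.15 with fluoxetine. In the nuclear receptor list they were 2.80 for fkbp5 (0.000141) and 1.09 for ppargc1b (0.00288) at 25 µg/L and 0.78 for ppargc1b (0.025) at 250 µg/L. The dose effect of sertraline minus that of fluoxetine was -3.00 for fkbp5 (0.0375), the 1 probe set of 15502 to pass in that comparison. Leaving out 1 array in turn kept the calls of slc20a1b, stc2a, fkbp5 and ppargc1b at 25 µg/L (at 250 µg/L for stc2a) and of dnajb1b and ampd3b at 25 µg/L in all 15 fits. At 25 µg/L the calls of cyp24a1, igfbp1b, fdft1 and slc34a2b were lost without sertraline replicate 1 (-1.68, -1.86, 0.48 and -0.52 in that order) or 2 (-1.40, -1.71, 0.45 and -0.41), those of cyp24a1 and igfbp1b also without fluoxetine replicate 2 (-1.52 and -1.68), and that of cyp24a1 without sertraline replicate 3 (-1.69). At 250 µg/L the calls of dnajb1b and ampd3b were lost without fluoxetine replicate 1 (-0.83 and -0.89) or sertraline replicate 2 (-0.80 and -0.77), and without fluoxetine replicate 3 for dnajb1b (-0.86) or 2 for ampd3b (-0.90). That of ca2 was lost in 7 fits (without any fluoxetine array at 250 µg/L, sertraline at 250 µg/L replicate 1 or 3, sertraline at 25 µg/L replicate 3 or control replicate 2, with adjusted p up to 0.124). That of ppargc1b was lost in 5 (without any sertraline array at 250 µg/L or fluoxetine at 250 µg/L replicate 1 or 2, up to 0.0972).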

How the results depend on the processing

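No difference of cyp24a1 or cyp2r1 that had passed the threshold changed sign under any alternative. The difference of cyp24a1 between fluoxetine at 25 µg/L and control no longer passed with quantile normalization (1.4, adjusted p 0.0527), without moderated variances (1.34, 0.0996), with array weights (1.18, 0.211) or with the compared groups alone (1.34, 0.285), and ranged from 1.09 to 1.66 when 1 array was left out. Sertraline minus fluoxetine at 25 µg/L no longer passed without moderated variances (-1.59, adjusted p 0.0561), with array weights (-1.49, 0.0693) or with the compared groups alone (-1.59, 0.15), and ranged from -1.91 to -1.33. The cyp2r1 difference between sertraline at 250 µg/L and control passed with array weights (0.72, adjusted p 0.0328), as did its differences from sertraline at 25 µg/L (0.84) and fluoxetine at 250 µg/L (0.49), and in no other setting. With the GAPDH covariate the difference of dose effects moved to 1.01 for cyp24a1 and 0.35 for cyp2r1. The filter on low values removed the second cyp24a1 probe set. The cause of these changes was not tested.

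Counts of all probe sets that passed against control (10 with sertraline at 25 µg/L, 0 with sertraline at 250 µg/L, 392 with fluoxetine at 25 µg/L and 179 with fluoxetine at 250 µg/L) moved as follows. With sertraline at 25 µg/L they became 4 with quantile normalization, 16 with the filter on low values, 1 without moderated variances, 25 with array weights, 4 with the GAPDH covariate and 0 with the compared groups alone. With sertraline at 250 µg/L they became 8 with the filter, 6 with a trended prior, 28 with array weights and 2 with the compared groups alone. With fluoxetine at 25 µg/L they became 90 with the compared groups alone, and at 250 µg/L 92 without moderated variances, 276 with array weights and 61 with the compared groups alone. Leaving out 1 array gave 1 (without sertraline at 25 µg/L replicate 2, or control replicate 1 or 2) to 13 with sertraline at 25 µg/L and 0 to 10 at 250 µg/L. It gave 225 (without control replicate 3) to 1034 with fluoxetine at 25 µg/L and 74 (without fluoxetine at 250 µg/L replicate 1) to 247 at 250 µg/L, where 10, 1034 and 247 came without fluoxetine at 25 µg/L replicate 3. Of the 53 vitamin D and calcium genes, the 3 that passed with fluoxetine at 25 µg/L became 1 with array weights or the compared groups alone, and 1 to 9 without 1 array. The 1 at 250 µg/L became 0 with a trended prior, without moderated variances, with the replicate block, the GAPDH covariate or the compared groups alone, 2 with array weights or the mean of a gene's probe sets, and 0 to 2 without 1 array.

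Replicate numbers did not pair the arrays: deviations from group means correlated at -0.32 to 0.40 in the 30 same-numbered pairs, and 5 of 15 arrays correlated best with their own number. With the replicate block the counts were 3 and 2 with sertraline at 25 and 250 µg/L and 384 and 147 with fluoxetine at 25 and 250 µg/L, and cyp24a1 with fluoxetine at 25 µg/L kept its difference of 1.34 (adjusted p 0.0226). With Spearman in place of Pearson correlation, 2 of the 5 nearest neighbours of the main cyp24a1 probe set, 0 of the other and 1 of cyp2r1 were shared. The 3 arrays per group limit all of these results.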

Other observations

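With group means subtracted, the gene most correlated with the main cyp24a1 probe set over the 15 arrays was tgfbr2b (r = 0.95), a receptor gene for transforming growth factor beta, and with cyp2r1 it was prr12a (r = 0.90).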
